A study of Homo sapiens with 12 samples.

Results

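The genes described here are 34 known targets of the hypoxia-inducible factors that do not belong to glycolysis. They were taken from a fixed list of gene names and found on the arrays by symbol, with ERO1L standing for ERO1A. No cut on signal or change picked them, but the list was chosen with earlier results of these data known. Its counts are therefore not independent of these data. Of the 34 genes, 33 had a probe set of their own and 32 were bright enough to be tested, among 12504 genes tested in all. PLOD1, a lysyl hydroxylase of collagen, had only a probe set shared with another gene. RORA, a nuclear receptor, had 3 probe sets between 2.11 and 2.23 on the log2 scale, all under the filter on dim signals. Both were left out of every count of tested genes below, but their promoter windows are among those counted.

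The study asked how human cancer cells change when muscle progenitor cells grow beside them. It compared 4 groups of 3 arrays each: 786-O co-cultured with myoblasts, 786-O grown alone, PC3 co-cultured with myoblasts and PC3 grown alone. 786-O is a line of clear cell renal carcinoma and was kept in RPMI1640 medium, while PC3 is a line from a bone metastasis of prostate cancer and was kept in F-12K medium, so the line and its medium cannot be told apart. In the co-cultures, 30000 cancer cells were seeded in the lower chamber of a transwell plate, and after 6 h, 10000 primary limb myoblasts of C57BL/6-Tg GFP mice, taken at 5 days of age, were placed in the upper chamber. Other label text gives equal numbers of both cell types. Total RNA was collected 12 h later, and each line is a single established cell line. Nothing in the labels says that the 3 repeats of a group came from separate cultures. The p-values therefore cover no more than the spread among these arrays, which may be technical.

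Hypoxia-inducible factors are transcription factors made of an oxygen-sensitive alpha subunit, coded by HIF1A or EPAS1, and a stable partner coded by ARNT. When oxygen is plentiful, prolyl hydroxylases mark the alpha subunit, and the VHL protein directs the marked subunit to degradation. When oxygen is scarce, the factor binds short DNA elements and raises genes for pH control, blood flow, collagen modification, mitochondrial turnover and lipid storage. 786-O cells lack working VHL protein and are known to keep EPAS1 protein stable in the presence of oxygen, whereas PC3 cells carry working VHL. The arrays read RNA, and neither the oxygen level of the cultures nor the protein of the factors was measured.

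The DNA element that these factors bind has the core ACGTG or GCGTG. Promoter windows of 300 bases, 250 before to 50 after the gene start, were found in RefSeq (GRCh38.p14) for 28 of the 34 genes, and the first listed window was used for the 6 genes with several. Read on both strands, ACGTG was present in 18 of the 28 windows (64.3%), against 21.4% of all 35116 windows and 23% of 22199 windows of protein-coding genes. GCGTG was present in 16 of the 28 (57.1%), against 36.5% of all windows and 43% of those of protein-coding genes. At least 1 of the cores was present in 23 of the 28 (82.1%), against 48.4% and 54.7%. The palindrome CACGTG, which contains ACGTG on both strands, was present in 9 of the 28 (32.1%), against 7.26% and 8.34%. The windows of the 28 genes were also richer in G and C, at 66.8% of bases, against 57.5% and 60.9%. These matches describe letters and do not show binding.

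Upstream sequences are shown for 4 genes on which the results below turn, with the cores on either strand in capitals. DDIT4 rose in both lines, ADM rose in 786-O and fell in PC3, CA9 was measured in PC3 and lay at background in 786-O, and VLDLR was the reverse of CA9. All 4 are on the plus strand and run from 5′ to 3′ over the 250 bases before the gene start, at chr10:72273674-72273923 for DDIT4, chr11:10304823-10305072 for ADM, chr9:35673678-35673927 for CA9 and chr9:2621537-2621786 for VLDLR (GRCh38.p14). The core nearest to the start began 53 bases before it in DDIT4, 101 in ADM, 18 in CA9 and 31 in VLDLR.
DDIT4: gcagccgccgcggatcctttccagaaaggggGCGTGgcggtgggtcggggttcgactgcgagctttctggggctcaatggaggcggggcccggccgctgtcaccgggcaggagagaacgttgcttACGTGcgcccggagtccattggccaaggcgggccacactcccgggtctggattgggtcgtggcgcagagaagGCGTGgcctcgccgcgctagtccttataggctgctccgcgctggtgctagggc
ADM: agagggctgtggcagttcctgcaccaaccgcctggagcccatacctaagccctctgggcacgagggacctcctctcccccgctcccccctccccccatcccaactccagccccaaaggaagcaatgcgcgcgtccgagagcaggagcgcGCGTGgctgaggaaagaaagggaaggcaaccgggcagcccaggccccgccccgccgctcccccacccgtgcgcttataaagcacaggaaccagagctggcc
CA9: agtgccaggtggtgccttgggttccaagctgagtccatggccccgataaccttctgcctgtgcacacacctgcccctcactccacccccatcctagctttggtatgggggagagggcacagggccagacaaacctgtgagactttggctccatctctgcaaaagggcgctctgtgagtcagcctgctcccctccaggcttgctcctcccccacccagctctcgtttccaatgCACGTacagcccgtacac
VLDLR: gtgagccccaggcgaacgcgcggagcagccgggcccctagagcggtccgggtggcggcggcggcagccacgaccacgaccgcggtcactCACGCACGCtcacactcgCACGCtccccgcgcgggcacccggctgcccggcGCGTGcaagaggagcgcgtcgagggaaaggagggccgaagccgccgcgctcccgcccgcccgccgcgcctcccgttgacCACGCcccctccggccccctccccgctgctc
DDIT4 held 1 ACGTG and 2 GCGTG in this stretch, ADM 1 GCGTG, CA9 1 ACGTG and VLDLR 5 GCGTG.

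Each array gave a signal per probe set, which is used here as log2 signal. Median signals of the arrays were alike, from 5.46 to 5.73 on the linear scale. A log2 signal under 4 was taken as background. Kidney markers PAX8, PAX2 and CDH6 were over background in 786-O and LHX1 was not. Among prostate markers, HOXB13 and STEAP1 were over background on all PC3 arrays, FOLH1 reached 4.24 on PC3 arrays, and KLK3, KLK2 and TMPRSS2 lay under background on all 12 arrays. STEAP1 was over background in 786-O as well. The myoblasts were mouse cells, whereas the array holds probes for the human genes. Of 13 myoblast markers, 11 lay under background on all arrays, MYOD1, MYF5, MYOG, PAX7 and DES among them. PAX3 was over background in 786-O only, both with myoblasts and alone (log2 change 0.73 ± 0.33 in limma, adjusted p = 0.161). ITGA7 reached 4.28 in PC3. The summed signal of the 13 was between 220.1 and 419.3 in 786-O with myoblasts and between 140.4 and 238.4 in 786-O alone. It was between 69.2 and 83.2 in PC3 with myoblasts and between 71.5 and 78.4 in PC3 alone. In 786-O the sum rests mostly on PAX3, so it is no measure of myoblast RNA. The second array of 786-O with myoblasts stood apart in RNA quality: its ratio of 3′ to 5′ signal was 7.22 for ACTB and 1.84 for GAPDH, against 3.08 to 4.24 and 1.07 to 1.29 on the other 11 arrays.

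**Figure D1:**
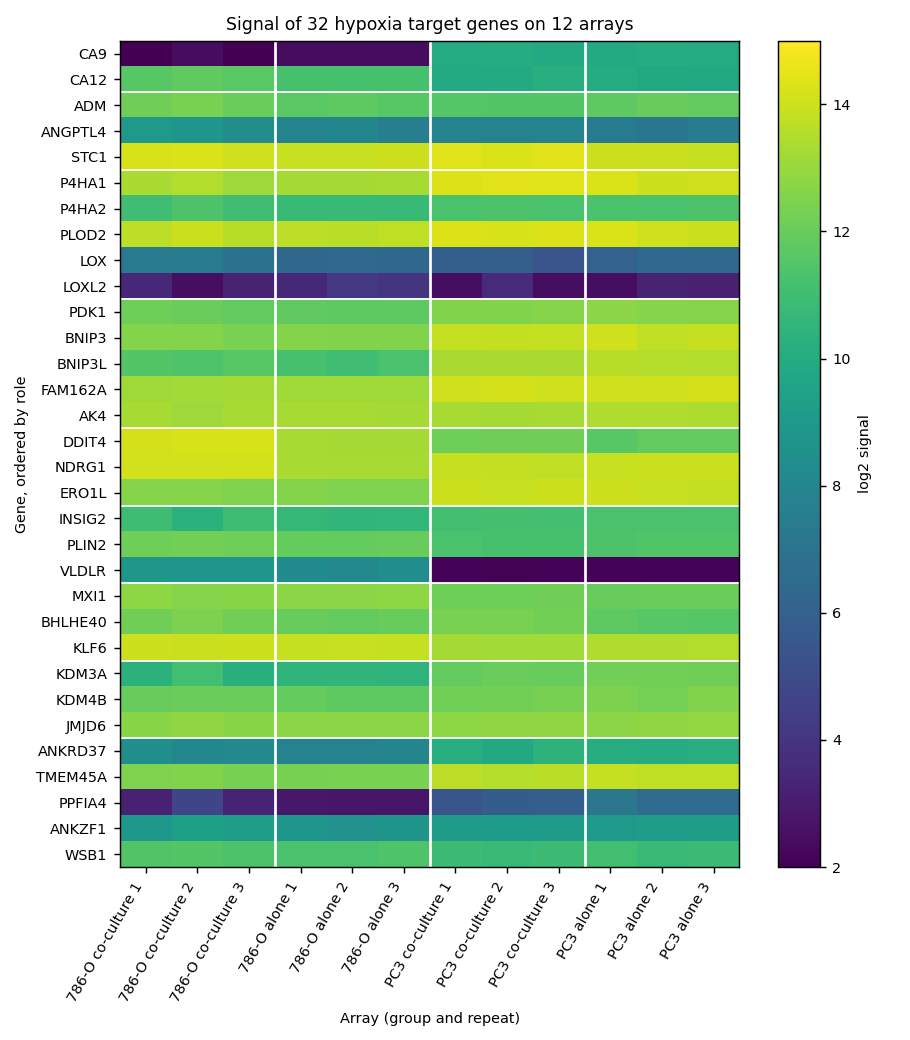
log2 signal of the 32 tested genes (rows, ordered by role) on the 12 arrays (columns, by group and repeat). CA9 is dark on all 786-O arrays, PPFIA4 on most 786-O arrays and VLDLR on all PC3 arrays, and LOXL2 is dark nearly throughout.

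Levels differed widely between genes within each line, although brightness is comparable only within a probe set. CA9, a membrane carbonic anhydrase used as a marker of hypoxia and of renal carcinoma, lay at background on all 6 arrays of 786-O and was near 10 on all PC3 arrays. VLDLR, a receptor for triglyceride-rich lipoproteins, lay at background on all 6 arrays of PC3. LOXL2, an enzyme that cross-links collagen, exceeded background on a single array, the second of 786-O alone, at 4.17. PPFIA4 lay at background on most 786-O arrays. The map of signals shows these values as the dark ones.

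In 786-O cells, 14 of the 32 genes rose with myoblasts and 0 fell (limma, Benjamini-Hochberg adjusted p under 0.05 over all genes). Across all 12504 genes 8.08% rose and 3.9% fell. With each array centred on its median, 11 of the 32 rose and 0 fell, while 6.52% of all genes rose and 6.69% fell. In the main fit at an unadjusted p under 0.05, 18 of the 32 were higher and 1 was lower, LOXL2, mostly at background. The share of all genes at that threshold was not counted. The median log2 change was 0.21 over the 32 genes and 0.02 over all genes, and 26 of the 32 changes were above 0. The genes that rose came from 8 of the 9 roles in the list, with all 3 secreted signals among them. The role without a call was that of KDM3A, KDM4B and JMJD6, listed here as dioxygenases. Of the 14, 0 changed as much as 2-fold. In RNA of whole cultures, a change in the number of cells that make a transcript and a change in RNA per cell cannot be told apart.

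Of the 3 stress genes, DDIT4 and NDRG1 rose and ERO1L did not pass. DDIT4, an inhibitor of mTOR signalling, had log2 signals of 14.16, 14.19 and 14.19 in 786-O with myoblasts, against 13.28, 13.26 and 13.27 in 786-O alone. The groups lay far apart compared with their spread, and the log2 change was 0.91 ± 0.06 (SE, n = 3 per group, adjusted p = 1.49e-05), or 1.88-fold. NDRG1, a cytosolic protein induced by many stresses, stood at 14.13, 14.11 and 14.12 with myoblasts and at 13.34, 13.32 and 13.32 alone. Its change was 0.79 ± 0.03 (adjusted p = 1.42e-07), the smallest p among the 32 genes. ERO1L, the oxidase that forms disulfide bonds in the endoplasmic reticulum, was at 12.62, 12.64 and 12.47 with myoblasts and at 12.58, 12.51 and 12.51 alone, which overlap (change 0.05 ± 0.06).

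All 3 secreted signals were higher with myoblasts. ANGPTL4, a secreted inhibitor of lipoprotein lipase, had 9.02, 8.81 and 8.40 with myoblasts, against 7.82, 7.95 and 7.58 alone. This was the largest called change, 0.96 ± 0.17 (adjusted p = 0.00633), and its groups did not overlap. ADM, the vasodilator peptide adrenomedullin, had 12.18, 12.41 and 12.04 with myoblasts, against 11.67, 11.75 and 11.61 alone, a change of 0.53 ± 0.09 (adjusted p = 0.00359). STC1, the secreted glycoprotein stanniocalcin, was already among the brightest probe sets, at 14.21, 14.24 and 14.08 with myoblasts and 13.93, 13.92 and 14.00 alone. Its change was smaller, 0.22 ± 0.05 (adjusted p = 0.0201). Of the pH genes, CA12, a membrane carbonic anhydrase, had 11.61, 11.83 and 11.68 with myoblasts, against 11.24, 11.23 and 11.24 alone (0.47 ± 0.08, adjusted p = 0.00562). Its 3 other bright probe sets gave 0.52, 0.75 and 0.55. CA9 had no measurable change here, since both groups of 786-O were at background.

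Among the collagen enzymes, LOX and P4HA2 rose. LOX, which cross-links collagen and elastin, had 7.31, 7.42 and 6.92 with myoblasts, against 6.37, 6.42 and 6.34 alone, a change of 0.84 ± 0.19 (adjusted p = 0.0190). P4HA2, a catalytic subunit of collagen prolyl hydroxylase, had 10.99, 11.35 and 11.02 with myoblasts, against 10.81, 10.81 and 10.82 alone (0.31 ± 0.09, adjusted p = 0.0382). The second array, which stood apart in RNA quality, was the highest, and the change was 0.19 without it (adjusted p = 0.0294). P4HA1, the other such subunit, and PLOD2, a lysyl hydroxylase, overlapped between groups, at 0.02 ± 0.09 and 0.06 ± 0.09. LOXL2 gave -0.81 ± 0.36 at background (adjusted p = 0.155).

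In mitochondria and lipid handling, 3 further genes rose. BNIP3L, a receptor that marks mitochondria for autophagy, had 11.52, 11.42 and 11.62 with myoblasts, against 11.20, 11.03 and 11.29 alone (0.35 ± 0.07, adjusted p = 0.0115). PDK1, which restrains pyruvate entry into the citric acid cycle, missed the threshold at 0.22 ± 0.07 (adjusted p = 0.057). BNIP3, the related receptor, FAM162A, a mitochondrial protein, and AK4, a mitochondrial adenylate kinase, lay between -0.05 and 0.07. VLDLR had 8.89, 8.83 and 8.85 with myoblasts, against 8.27, 8.14 and 8.38 alone (0.59 ± 0.12, adjusted p = 0.0126). PLIN2, a coat protein of lipid droplets, had 12.13, 12.25 and 12.15 with myoblasts, against 11.95, 11.95 and 11.96 alone (0.23 ± 0.06, adjusted p = 0.0269). INSIG2, which restrains cholesterol synthesis, had 10.96, 10.29 and 10.97 with myoblasts, against 10.66, 10.56 and 10.61 alone. The low value was that of the second array; the change was 0.13 ± 0.14 with it and 0.36 without it (adjusted p = 0.00261), and the difference of responses was then 0.53 (adjusted p = 0.00166).

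Of the transcription factors, BHLHE40, a repressor linked to the circadian clock, had 12.20, 12.44 and 12.20 with myoblasts, against 11.97, 11.89 and 11.98 alone (0.33 ± 0.08, adjusted p = 0.0226). Its dimmer probe set gave -0.18, and with the mean of both the change was 0.07 and did not pass (adjusted p = 0.882). KLF6, a zinc finger factor, had 14.00, 13.96 and 14.02 with myoblasts, against 13.86, 13.91 and 13.86 alone, the smallest called change at 0.12 ± 0.03 (adjusted p = 0.0435). Its 3 other bright probe sets gave 0.14, 0.40 and 0.64, and their mean with it gave 0.33 (adjusted p = 0.06). MXI1, an antagonist of MYC, gave -0.05 ± 0.05. None of the 3 genes listed under dioxygenases passed. The histone demethylases KDM3A and KDM4B gave 0.09 ± 0.16 and 0.20 ± 0.07, and JMJD6 gave 0.00 ± 0.05. ANKZF1, a factor of ribosome quality control, had 8.95, 9.37 and 9.25 with myoblasts, against 8.81, 8.59 and 8.74 alone (0.48 ± 0.13, adjusted p = 0.0322). ANKRD37 gave 0.41 ± 0.14 and did not pass (adjusted p = 0.0786), while TMEM45A and WSB1, a subunit of a ubiquitin ligase, gave 0.06 and 0.12. PPFIA4, of the liprin family, was at background on 5 of its 6 arrays in 786-O, at 3.20, 4.71 and 3.26 with myoblasts and 2.85, 2.76 and 2.75 alone, and the array over background was again the second.

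Without that second array, 14 of the 32 genes rose and 1 fell in 786-O, where 12.4% of all genes were called; ANKZF1 was lost (adjusted p = 0.0627), INSIG2 rose, and the gene that fell was CA9, at background. Omitting repeat 1, 2 or 3 of 786-O alone gave 7, 6 or 8 calls, and the share of all genes called was lower too, at 6.07%, 4.29% and 4.83%, against 12% with all arrays. The calls of CA12, ADM, ANGPTL4, BNIP3L, DDIT4 and NDRG1 were kept in each of the 12 omissions. The call of VLDLR was lost in 1 omission, those of STC1, LOX, PLIN2 and BHLHE40 in 3 each, that of ANKZF1 in 5, of P4HA2 in 8 and of KLF6 in 9. The highest adjusted p was then 0.148 for KLF6 and 0.069 for LOX without repeat 3 of 786-O alone, and without repeat 2 of 786-O alone it was 0.0617 for VLDLR, 0.0779 for STC1, 0.087 for PLIN2, 0.0863 for BHLHE40, 0.118 for ANKZF1 and 0.108 for P4HA2. With only the 6 arrays of 786-O in the fit, 3 genes were called (CA12, DDIT4 and NDRG1), where 1.4% of all genes were.

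**Figure D2:**
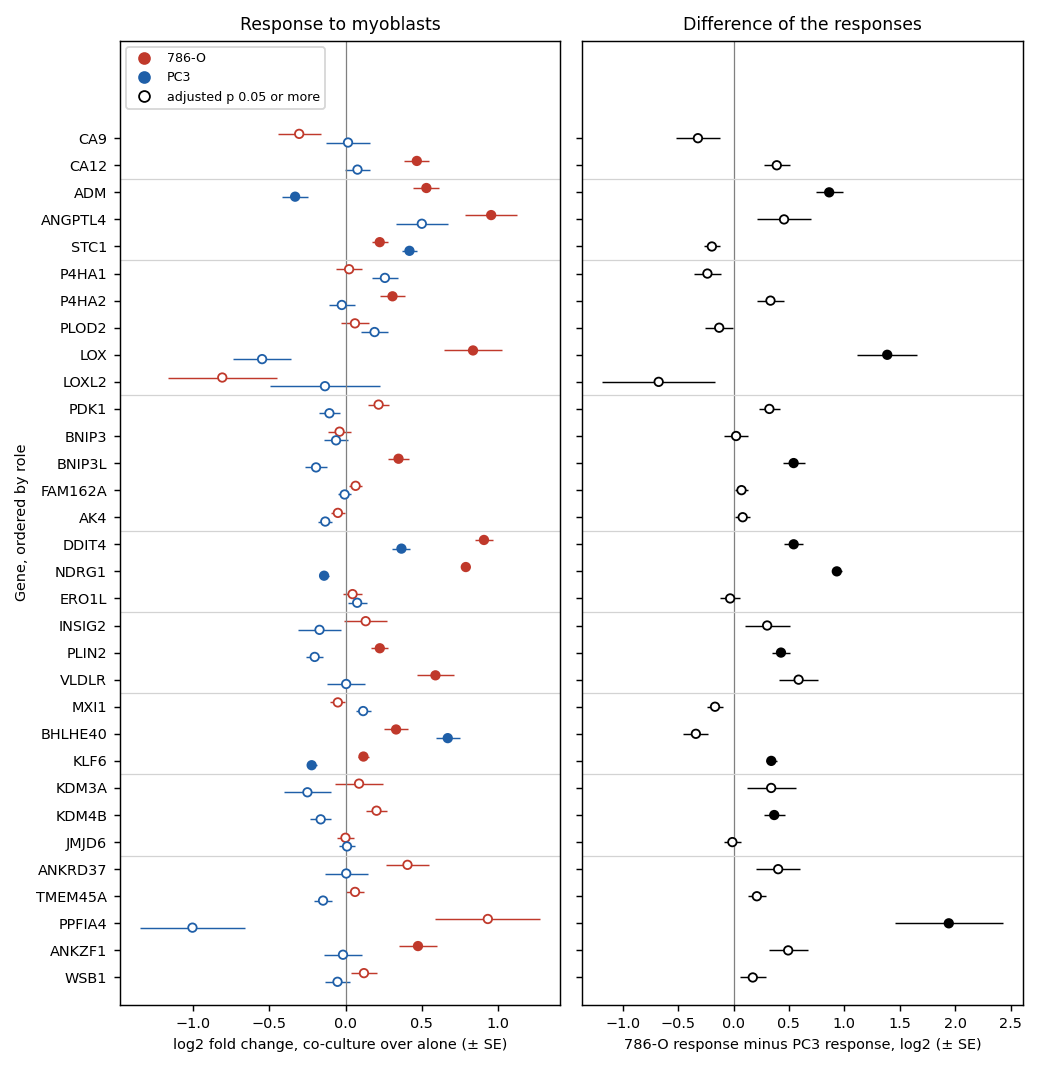
Left, log2 fold change of co-culture over alone in 786-O (red) and PC3 (blue) with its SE for the 32 genes, ordered by role; right, the 786-O change minus the PC3 change. Filled points passed at an adjusted p under 0.05: 14 genes in 786-O, 6 in PC3 and 9 in the difference, the last all to the right of 0.

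In PC3 cells, 3 of the 32 genes rose with myoblasts (DDIT4, STC1 and BHLHE40) and 3 fell (ADM, NDRG1 and KLF6). Across all genes 3.19% rose and 2.51% fell. The median log2 change of the 32 genes was -0.04, against 0.00 over all genes, and 13 changes were above 0 and 19 below. All 6 genes were among those that rose in 786-O: 3 moved the same way in both lines and 3 moved in opposite ways.

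Of the 3 that rose, BHLHE40 changed most, with 12.37, 12.38 and 12.22 in PC3 with myoblasts, against 11.76, 11.63 and 11.57 in PC3 alone (0.67 ± 0.08, adjusted p = 0.000279). STC1 had 14.38, 14.28 and 14.40 with myoblasts, against 13.99, 13.94 and 13.86 alone (0.42 ± 0.05, adjusted p = 0.000415). Its other 3 probe sets were also higher, by 0.77, 0.50 and 1.71, the last of them at a probe set near background. DDIT4 had 12.15, 12.16 and 12.18 with myoblasts, against 11.63, 11.89 and 11.86 alone (0.37 ± 0.06, adjusted p = 0.00286). In each of the 3 genes every array with myoblasts was above every array alone.

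Among the genes that fell, the changes were from -0.33 to -0.14. ADM had 11.57, 11.52 and 11.51 with myoblasts, against 11.77, 11.96 and 11.86 alone (-0.33 ± 0.09, adjusted p = 0.0442). NDRG1 had 13.85, 13.81 and 13.77 with myoblasts, against 13.93, 13.95 and 13.97 alone (-0.14 ± 0.03, adjusted p = 0.0181). KLF6 had 13.27, 13.22 and 13.21 with myoblasts, against 13.44, 13.43 and 13.48 alone (-0.22 ± 0.03, adjusted p = 0.00194). The groups did not overlap for these genes. The fall of ADM was lost in 9 of the 12 omissions of an array (adjusted p up to 0.176, without repeat 2 of PC3 alone) and that of NDRG1 in 3 (up to 0.0804, without repeat 3 of the PC3 co-culture), while KLF6, STC1, DDIT4 and BHLHE40 passed in all.

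Among genes called in 786-O but not here, ANGPTL4 had 7.82, 7.81 and 7.82 with myoblasts, against 7.32, 7.09 and 7.53 alone, and the change of 0.50 ± 0.17 missed the threshold (adjusted p = 0.133). LOX had 5.94, 5.96 and 5.38 with myoblasts, against 6.08, 6.42 and 6.42 alone (-0.55 ± 0.19, adjusted p = 0.142). BNIP3L had 13.37, 13.35 and 13.35 with myoblasts, against 13.62, 13.55 and 13.50 alone (-0.19 ± 0.07, adjusted p = 0.163). In all 3 genes the groups did not overlap, upward for ANGPTL4 and downward for LOX and BNIP3L. The same held for other genes that did not pass in PC3, such as AK4, MXI1, KDM3A and TMEM45A. How many of all genes did so was not counted. PLIN2 had 11.29, 11.24 and 11.21 with myoblasts, against 11.36, 11.49 and 11.49 alone (-0.20 ± 0.06, adjusted p = 0.0587). CA12 had 9.96, 9.97 and 10.18 with myoblasts, against 10.05, 9.90 and 9.92 alone, P4HA2 had 11.31, 11.37 and 11.28, against 11.33, 11.34 and 11.36, and ANKZF1 had 9.14, 9.15 and 9.21, against 9.0, 9.27 and 9.28. The groups of these last genes overlapped. VLDLR was at background throughout, between 2.10 and 2.12 with myoblasts and at 2.11 on each array alone.

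PPFIA4 had 5.44, 5.85 and 5.95 in PC3 with myoblasts, against 7.13, 6.56 and 6.57 alone, the widest gap of the list in this line, but its error was wide too (-1.01 ± 0.35, adjusted p = 0.135). KDM4B had 12.23, 12.23 and 12.32 with myoblasts, against 12.45, 12.29 and 12.53 alone, which overlap. The 16 genes that passed in neither line nor in the difference lay between -0.25 and 0.26 in PC3 (lowest adjusted p 0.129) and between -0.81 and 0.41 in 786-O (lowest adjusted p 0.057). For BNIP3 the probe sets disagreed: the brighter gave -0.06 in PC3, and the other, tested on its own, gave -0.44 (adjusted p = 0.00815). The second probe set of BNIP3L gave -0.40 (adjusted p = 0.0237).

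The PC3 count varied with the arrays that entered the fit, in which all groups share 1 estimate of the spread. Without the second array of 786-O with myoblasts it was 12, with 4 higher and 8 lower, while 10.5% of all genes were called. With only the 6 PC3 arrays it was 10, with 3 higher and 7 lower, where 6.44% of all genes were called. The same 6 genes were called in both of these fits.

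The difference of the responses tests directly whether the lines reacted unequally. For 9 of the 32 genes the change in 786-O was above that in PC3 in the limma fit, and for 0 it was below. Of all genes 3.4% had a higher and 2.57% a lower response in 786-O. At an unadjusted p under 0.05, 15 of the 32 were above and 3 below, and the share of all genes was not counted. With arrays centred on their median, 8 were above and 0 below, where 2.84% of all genes were above and 3.3% below. The median difference was 0.33 over the 32 genes and 0.02 over all genes, with 23 above 0 and 9 below. The 9 genes were ADM, LOX, BNIP3L, DDIT4, NDRG1, PLIN2, KLF6, KDM4B and PPFIA4, drawn from 8 of the 9 roles.

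NDRG1 had the clearest difference, 0.93 ± 0.04 (adjusted p = 3.80e-07), and its order between the lines turned over: with myoblasts 786-O was above PC3, and alone it was below. ADM differed by 0.86 ± 0.12 (adjusted p = 0.00199) and KLF6 by 0.34 ± 0.05 (adjusted p = 0.00199), both having moved in opposite ways. DDIT4 rose in both lines and rose more in 786-O, by 0.54 ± 0.08 (adjusted p = 0.00333). LOX differed by 1.39 ± 0.27 (adjusted p = 0.0128), BNIP3L by 0.54 ± 0.10 and PLIN2 by 0.43 ± 0.08 (both adjusted p = 0.00986). For these 3 the change in 786-O passed and that in PC3, of opposite sign, did not.

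KDM4B, at 0.37 ± 0.10 (adjusted p = 0.0444), passed in neither line alone, with 12.00, 12.02 and 12.04 in 786-O with myoblasts, against 11.92, 11.76 and 11.77 in 786-O alone. PPFIA4, at 1.94 ± 0.49 (adjusted p = 0.0400), rests on 786-O values that are mostly at background, and the difference was 1.45 without the second array of the co-culture. Both calls were lost in 9 of the 12 omissions, with adjusted p up to 0.116 for KDM4B and 0.108 for PPFIA4. The other 7 calls were kept in all 12. No gene had a called negative difference by this test, which is signed and does not rank the sizes of the changes. Among negative differences the smallest p were those of BHLHE40 at -0.34 ± 0.11 (adjusted p = 0.0987) and STC1 at -0.20 ± 0.07 (adjusted p = 0.139). With the mean of probe sets STC1 passed, at -0.58 (adjusted p = 0.00902). So did BNIP3 at 0.33 (adjusted p = 0.00516), CA12 at 0.46 (adjusted p = 0.0189) and VLDLR at 0.59 (adjusted p = 0.0421). In that setting 11 genes were higher and 1 lower, where 5.88% of all genes were called. The dimmer probe set of BNIP3, tested on its own, gave 0.63 (adjusted p = 0.0115), and the brighter gave 0.02. Without the second array of the 786-O co-culture BHLHE40 passed, at -0.42 (adjusted p = 0.0152), and 10 genes were higher and 1 lower, where 10.5% of all genes were called, against 5.97% with all arrays.

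**Figure D3:**
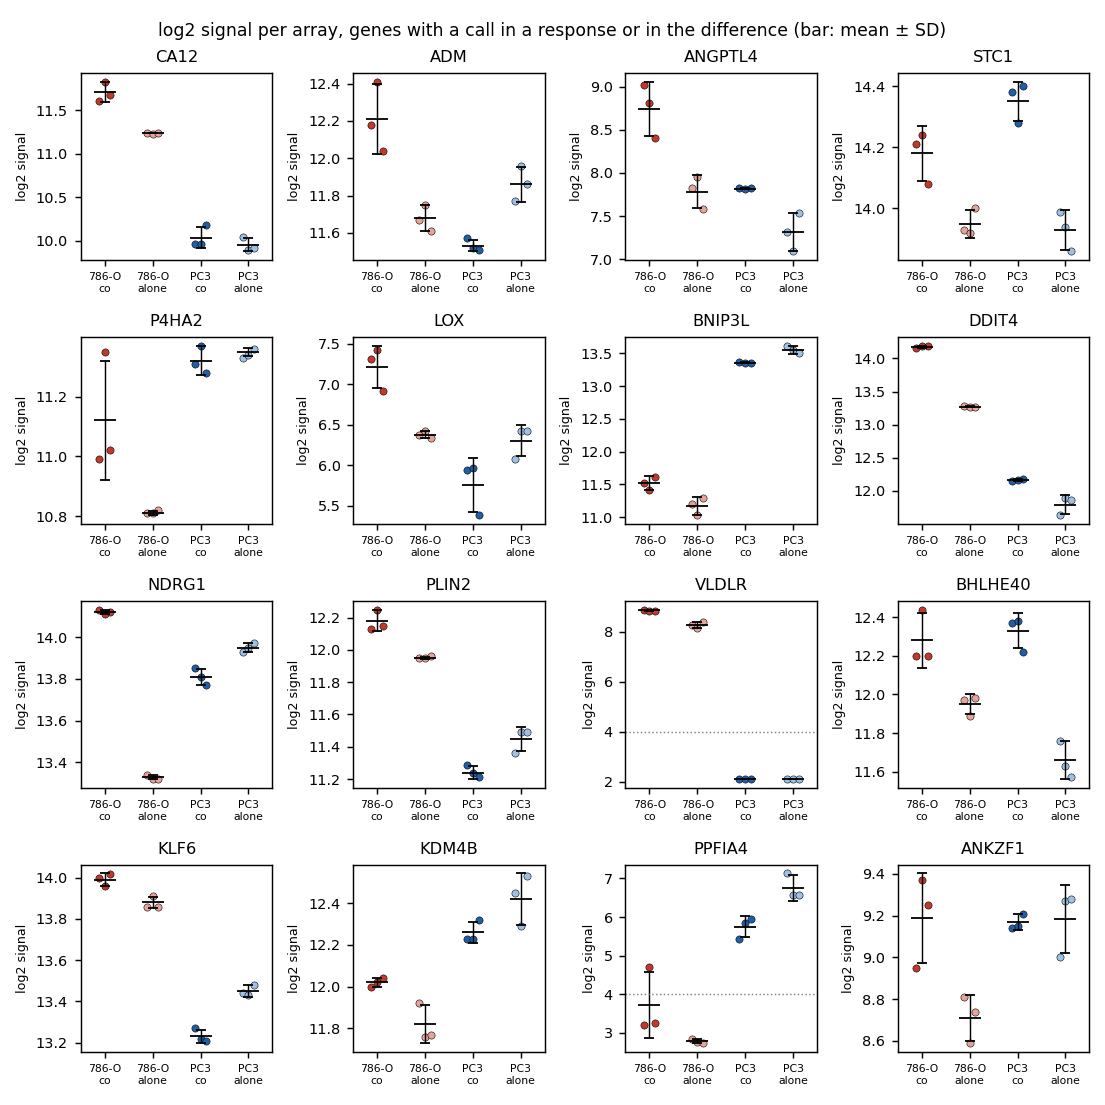
log2 signal on each array for the 16 genes called in a response or in the difference, by group, with the mean and SD as bars; the dotted line is the background level of 4, and each panel has its own scale. ADM, NDRG1 and KLF6 show opposite steps in the lines, while DDIT4, STC1 and BHLHE40 step up in both.

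The lines themselves differed in most of these genes, as in most genes tested, of which 76.2% were called with myoblasts and 75% alone. With myoblasts, 11 of the 32 genes were higher in 786-O than in PC3 (34.38%) and 16 lower (50%), where 38.5% of all genes were higher and 37.6% lower. Alone, 10 were higher (31.25%) and 18 lower (56.25%), where 37% of all genes were higher and 37.9% lower. The median difference of the 32 genes was -0.13 with myoblasts and -0.42 alone, against 0.01 and 0.00 over all genes.

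The widest gaps were in CA9 and VLDLR. CA9 had 1.96, 2.41 and 1.96 in 786-O with myoblasts, against 10.02, 10.04 and 9.95 in PC3 with myoblasts, and 2.42, 2.41 and 2.41 in 786-O alone, against 9.94, 10.03 and 9.99 in PC3 alone. It was at least 64.1-fold lower in 786-O with myoblasts and at least 63.4-fold lower alone, as bounds against the background level. CA12, its paralogue, went the other way and was 3.18-fold higher in 786-O with myoblasts and 2.43-fold higher alone. VLDLR was at least 29-fold higher in 786-O with myoblasts and at least 19.2-fold higher alone. CA9 and VLDLR are among the calls counted above, but each passed the filter on dim signals only through the line in which it was bright. PPFIA4 was at least 6.73-fold lower in 786-O alone. Its adjusted p in limma, 4.98e-07, belongs to the measured difference and not to the bound.

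The mitochondrial genes were mostly lower in 786-O. With myoblasts 4 of the 5 were lower, from BNIP3L at -1.84 ± 0.07 and BNIP3 at -1.31 ± 0.08 to FAM162A at -0.89 ± 0.04 and PDK1 at -0.55 ± 0.07, while AK4 did not pass (-0.06 ± 0.05, adjusted p = 0.245). Alone all 5 were lower, with BNIP3L at -2.38 ± 0.07 (adjusted p = 1.70e-11), BNIP3 at -1.34 ± 0.08, FAM162A at -0.97 ± 0.04, PDK1 at -0.87 ± 0.07 and AK4 at -0.14 ± 0.05. BNIP3 had 12.59, 12.60 and 12.38 in 786-O with myoblasts, against 13.84, 13.79 and 13.88 in PC3 with myoblasts. It had 12.59, 12.54 and 12.56 in 786-O alone, against 14.08, 13.78 and 13.84 in PC3 alone.

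Of the other genes with wide gaps, 4 were lower in 786-O both with myoblasts and alone. In the co-cultures ANKRD37 had 8.46, 8.07 and 8.14 in 786-O, against 10.13, 9.88 and 10.39 in PC3, and alone it had 7.77, 7.76 and 7.91 in 786-O, against 10.10, 10.07 and 10.22 in PC3. The differences were -1.91 ± 0.14 with myoblasts and -2.31 ± 0.14 alone. KDM3A had 10.37, 11.06 and 10.26 in 786-O with myoblasts, against 11.89, 12.02 and 11.99 in PC3 with myoblasts, the second 786-O array being the high value. Alone it had 10.45, 10.51 and 10.47 in 786-O, against 12.25, 12.22 and 12.18 in PC3, so that it differed by -1.40 ± 0.16 with myoblasts and by -1.74 ± 0.16 alone. TMEM45A had 12.47, 12.52 and 12.33 in 786-O with myoblasts, against 13.73, 13.57 and 13.63 in PC3 with myoblasts (-1.21 ± 0.06), and 12.32, 12.41 and 12.40 in 786-O alone, against 13.86, 13.78 and 13.74 in PC3 alone (-1.42 ± 0.06). ERO1L differed by nearly the same amount in both settings. It was lower in 786-O by -1.40 ± 0.06 with myoblasts, where PC3 had 14.03, 13.89 and 14.01, and by -1.37 ± 0.06 alone, where PC3 had 14.00, 13.89 and 13.80.

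On the higher side, DDIT4 was 4.04-fold higher in 786-O with myoblasts (2.02 ± 0.06) and 2.78-fold higher alone (1.47 ± 0.06). The transcription factor MXI1 differed by 0.57 ± 0.05 with myoblasts and 0.74 ± 0.05 alone, and KLF6 by 0.76 ± 0.03 and 0.42 ± 0.03. BHLHE40 did not pass with myoblasts (-0.05 ± 0.08, adjusted p = 0.596) and was higher alone (0.29 ± 0.08). PLIN2, ANGPTL4 and WSB1 were higher in 786-O by 0.93, 0.92 and 0.58 with myoblasts and by 0.51, 0.47 and 0.40 alone. LOXL2 passed alone only, and it was at background in PC3 and on 2 of the 3 arrays of 786-O alone. ADM and LOX were higher in 786-O with myoblasts, at 0.68 ± 0.09 and 1.46 ± 0.19, and STC1 was lower, at -0.18 ± 0.05, while these 3 and JMJD6 did not pass alone. NDRG1 was higher in 786-O with myoblasts (0.31 ± 0.03, adjusted p = 1.56e-06) and lower in 786-O alone (-0.62 ± 0.03, adjusted p = 1.95e-09). P4HA1, P4HA2, PLOD2, INSIG2, KDM4B and ANKZF1 were lower in 786-O alone, with differences from -0.84 to -0.38, and all but ANKZF1 (0.02 ± 0.13) were also lower with myoblasts.

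**Figure D4:**
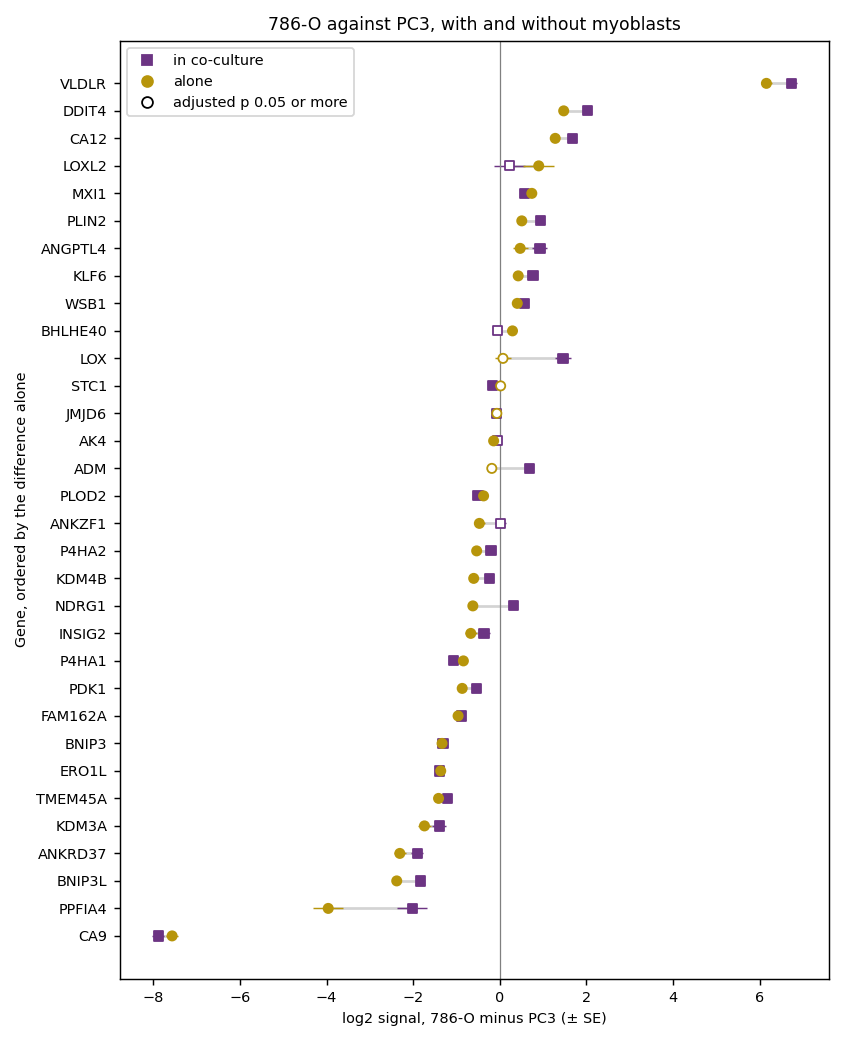
Difference in log2 signal of 786-O minus PC3 with its SE for the 32 genes, in co-culture (squares) and alone (circles), ordered by the difference alone; filled points passed at an adjusted p under 0.05. CA9 and VLDLR sit at opposite ends, and NDRG1, ADM and LOX shift rightward in co-culture. CA9 and VLDLR values rest on signals at background in 1 line.

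Of 13 genes of the oxygen-sensing system 12 were tested. In 786-O 1 rose and 2 fell, where 8.08% of all genes rose and 3.9% fell. The calls were among subunits of the factors and a coactivator; none of the 4 hydroxylases passed in either line (lowest adjusted p 0.0698). EPAS1, which codes an alpha subunit, rose in 786-O by 0.37 ± 0.09 (adjusted p = 0.0275) and in PC3 by 0.57 ± 0.09 (adjusted p = 0.00302). HIF1A, the other alpha subunit, fell in 786-O (-0.27 ± 0.07, adjusted p = 0.0328) and gave 0.14 ± 0.07 in PC3. CREBBP, a coactivator, gave -0.22 ± 0.06 in 786-O (adjusted p = 0.0353). In PC3 the calls were 2 rises, where 3.19% of all genes rose and 2.51% fell. Beside EPAS1 the other was ARNT2, a partner subunit. Its log2 signal averaged 7.34 ± 0.20 (SD, n = 3) with myoblasts and was at background alone (limma, adjusted p = 2.17e-06). Medians of the list were 0.06 in 786-O and -0.04 in PC3.

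Of 22 glycolytic targets of the same factors 21 were tested. In 786-O 6 rose and 1 fell, with a median of 0.06, where 8.08% of all genes rose and 3.9% fell. The only call in PC3 was 1 rise, with a median of -0.05, where 3.19% of all genes rose and 2.51% fell. SLC2A1, a glucose transporter, rose in 786-O by 0.51 ± 0.08 (adjusted p = 0.00387) and in PC3 by 0.54 ± 0.08 (adjusted p = 0.00218). ENO2, an enolase, rose in 786-O by 0.38 ± 0.06 (adjusted p = 0.00277) and PGM1, a phosphoglucomutase, by 0.37 ± 0.06 (adjusted p = 0.00342). PFKFB4, which makes and breaks down an activator of phosphofructokinase, rose there by 1.01 ± 0.19 (adjusted p = 0.00719). Among targets in blood vessel growth and iron handling, EDN1, the vasoconstrictor endothelin, rose in 786-O by 1.26 ± 0.21, and VEGFA, a growth factor for vessels, rose in PC3 by 0.57 ± 0.11. The lists differ in size and in brightness, and no test compared them.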

How the data were processed

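Total RNA of 12 samples, 3 in each of 4 groups, was read on Affymetrix HG-U133 Plus 2 arrays. The values the authors deposited are linear signal intensities, 1 for each probe set on each array, from 3.31 to 73706.3. MAS5 is the only tool named, per the submitters' processing notes; its version and any normalization between arrays are not given in the sources used here. The genes and lists were chosen with earlier results of these data known.

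Signals were taken to log2 without a constant. Control probe sets (62), probe sets without a symbol (13164) and those with several (1522) were left out, and 39927 remained. A probe set entered if its mean was above the median of 2.65, and the brightest per gene was used, which left 12504 genes. Symbols were updated through RefSeq identifiers, found for 96.5%; 6 of the 34 genes had older symbols in the table, and 15 had several entering probe sets. Background was set at a log2 of 4 (a signal of 16) after values were seen; 27 control probe sets for bacterial transcripts reached 5.02 at most on the linear scale. With a whole group under this level, folds are bounds against it.

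A single model over the 12 arrays, with a mean for each group, was fitted with limma 3.58.1 in R 4.3.3 (empirical Bayes, intensity trend) for 5 contrasts, two-sided, with Benjamini-Hochberg adjustment over all genes and a threshold of 0.05. Errors are standard errors of that fit, whose spread all groups share. Their number, 3 arrays per group, limits the precision. No label says that a repeat number marks a shared day or batch, so the fit had no block. Correlations of same-numbered deviations were from -0.15 to 0.162. With 3 arrays per group they cannot show whether the samples were paired. The fitting step was tested on simulated data. Every gene of the list is named; values on every array are given for those called in a response or the difference and for the 10 with the widest gap between the lines alone, and up to 4 genes of each other list by smallest p. Some genes of the prostate marker list and of the vessel and iron list are not reported here. The alternatives tried are in the closing section.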

Additional observations from a re-analysis of the deposited data

Results flagged for a closer look

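For 9 genes the response to myoblasts differed between the lines by the interaction test of the limma fit, and for each the 786-O response minus the PC3 response was above 0 on the log2 scale. The difference was 0.86 for ADM, 1.39 for LOX, 0.54 for BNIP3L, 0.54 for DDIT4, 0.93 for NDRG1, 0.43 for PLIN2, 0.34 for KLF6, 0.37 for KDM4B and 1.94 for PPFIA4. ADM, NDRG1 and KLF6 were called in opposite directions in the lines, and DDIT4 was called upward in both. The fall of ADM in PC3 and the rise of KLF6 in 786-O were each lost in 9 of 12 omissions of an array. The fall of NDRG1 in PC3 was lost in 3. Of PPFIA4, 5 of the 6 arrays of 786-O were at background.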

How the results depend on the processing

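The number of the 32 genes called depended most on which probe sets and which arrays entered. Probe sets named _x_at or _s_at can match several transcripts, and without them only 18 of the genes were tested. The calls were then 5 in the 786-O response, 2 in the PC3 response and 4 in the difference. Between the lines they were 14 alone and 14 with myoblasts. Of all genes 10.6%, 5.88%, 5.83%, 74.3% and 75.6% were called, in that order. In the 786-O response the count of 14 became 5 at an adjusted p under 0.01 and 3 with only the arrays of that line. It became 9 with the filter at the 75th percentile, which left 25 of the genes. Of all genes 1.4% were called with only the 786-O arrays and 13.2% with that filter, against 12% in the main fit. Leaving out each array gave 6 to 15 calls in the 786-O response, 4 to 12 in the PC3 response and 7 to 11 in the difference. The share of all genes called then ran from 4.29% to 20.2%, from 3.47% to 10.5% and from 3.16% to 10.5%. In the PC3 response 6 became 10 with only the arrays of that line and 11 with the ACTB ratio as a covariate, which also gave 17 calls in the difference, 13 higher and 4 lower, the lower being BHLHE40, P4HA1, PLOD2 and STC1; with this covariate 11.1% and 15.1% of all genes were called, against 5.7% and 5.97% without it. With the repeat number as a block, 13 calls were made in the 786-O response, 6 in the PC3 response and 7 in the difference. Between the lines there were 29 alone and 27 with myoblasts. Of all genes 8.81%, 4.49%, 4.16%, 74.1% and 75% were called, in that order. Same-numbered samples are known to share only a number. The cause of these shifts was not tested, beyond the smaller number of genes or arrays in some. Quantile normalization, centring of arrays, log2(signal + 16), the variance models, the mean of probe sets and no filter kept each count within 1.5 times. The mean of probe sets moved some called values by over 1.5 times: in 786-O to 0.50 for ANGPTL4, in PC3 to 1.21 for BHLHE40, 0.85 for STC1 and -0.46 for KLF6, and in the difference to 0.79 for KLF6 and 0.12 for KDM4B, which did not pass (adjusted p = 0.651). No called gene reversed its direction in a setting that tested it; over the single genes followed, 121 values fell under the threshold and 25 passed it. The calls of CA12, DDIT4 and NDRG1 in the 786-O response, 4 of 6 in the PC3 response and 7 of 9 in the difference were kept in each alternative at the same threshold that tested them; of these, DDIT4, NDRG1, STC1, BHLHE40 and LOX were not tested without _x_at and _s_at probe sets, nor LOX with the filter at the 75th percentile. The arrays were deposited as signals without detection calls, so values near background limit CA9 and PPFIA4 in 786-O, VLDLR in PC3 and LOXL2 in both.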
